A study of Mus musculus with 2 samples.

Results

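Mature migratory dendritic cells were examined in mouse melanoma, as cell barcodes that carried both Ccr7 and Fscn1. Only barcodes of 500 or more UMIs (unique molecular identifiers, 1 per captured RNA molecule) and 200 or more genes entered, with mitochondrial genes holding at most 10%. Of these, members had at least 1 UMI of Ccr7 and at least 2 of Fscn1. Barcodes with 3 or more summed UMIs of the T cell genes Cd3e, Cd3d and Cd3g were left out. So were barcodes with 10 or more of the macrophage genes C1qa, C1qb and C1qc, or of the pigment genes Pmel, Mlana and Dct. This gave 654 members of 13854 barcodes, of which 424 of 7500 came from the OX40 agonist library and 230 of 6354 from the control library.

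Both libraries were made from female wild-type C57BL/6 mice, aged 10 weeks when B16-F10 cells, a cultured mouse melanoma line, were injected under the skin of the right flank. The OX40 agonist library came from tumours of mice given an agonist antibody against OX40, a receptor of activated T cells encoded by Tnfrsf4, and the control library from tumours of control mice. Tumours were dissociated with enzymes, passed over Ficoll, sorted for CD45 and against the dead-cell dye DAPI, and profiled in droplets with 10x Genomics 3′ chemistry. There was 1 library a group, and the labels do not say how many mice went into each, so no difference below has a replicate check and no test was made.

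Dendritic cells take up antigen in tissues and present it to T cells. On maturation they gain CCR7, the receptor for lymph node chemokines, and fascin, the actin-bundling protein encoded by Fscn1, and move through lymph vessels to the draining node. In tumours such cells also carry molecules that restrain T cells together with those that activate them. They can arise from cDC1, which depend on Batf3 and Irf8 and are known for cross-presentation to CD8 T cells, and from cDC2, which are known for presentation to CD4 T cells.

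The deposited matrices held 118059108 UMIs over 8569 barcodes in the OX40 agonist library and 114026695 UMIs over 7187 barcodes in the control library. Members had a median of 7784 UMIs and 2085 genes in the OX40 agonist library, and of 8746 UMIs and 2306 genes in the control library. The libraries shared 18 barcode sequences, of which 1 was a member in each library and 0 were members in both. Despite the CD45 sort, pigment-gene barcodes made up 7.92% of the OX40 agonist library and 6.23% of the control library.

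Members made up 5.65% of barcodes (exact Clopper-Pearson 95% interval 5.14 to 6.20) in the OX40 agonist library and 3.62% (3.17 to 4.11) in the control library. The ratio was 1.56 (1.33 to 1.84). Intervals here and below cover counting error only, not differences between mice or preparations. Those on UMIs also leave out the spread of a gene's UMIs between barcodes. For comparison, cDC1 barcodes had 2 or more summed UMIs of Xcr1 and Clec9a. They also had no Ccr7, at most 1 UMI of Fscn1, no Siglech (a plasmacytoid dendritic cell gene), and the limits on T cell, C1q and pigment genes. They numbered 88 and 56 in the OX40 agonist and control libraries, a ratio of shares of 1.33 (0.942 to 1.90). cDC2 barcodes had 2 or more UMIs of Cd209a, no Xcr1 or Clec9a, and the same other limits. They numbered 116 and 85, a ratio of 1.16 (0.866 to 1.55). Per cDC1 or cDC2 barcode there were 2.08 members in the OX40 agonist library and 1.63 in the control library. When members were required to have no UMI at all of the T cell, C1q and pigment genes, 130 and 41 were left and the ratio of shares was 2.69.

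The label was checked on markers that the rule did not use. After every barcode was thinned to 3000 UMIs, Ccl22 had a UMI in 80.3% of OX40 agonist members and 81.4% of control members. In T cell barcodes of the same libraries the share was 2.26% and 1.43%, and in macrophage barcodes 1.28% and 0.824%. Without thinning, the shares in members were 89.2% and 91.3%. Il12b had a UMI in 28.5% of thinned OX40 agonist members and 29.0% of thinned control members, against 0.701% and 0.344% in T cell barcodes. The median depth of T cell barcodes was 8108 UMIs in the OX40 agonist library and 11254 in the control library. Zbtb46, a transcription factor of conventional dendritic cells, was at 59.9 CPM (UMIs of the gene per 1000000 UMIs, summed over members) in OX40 agonist members and 52.9 CPM in control members. In cDC1 barcodes it was at 22.5 and 30.6 CPM. The Langerhans cell gene Cd207 was at 0 in both sets of members. The 6 Langerhans cell genes on the list summed to 10.1 CPM in OX40 agonist members and 11.4 CPM in control members, with 1 and 2 at 0.

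At the lower edge of the Fscn1 rule, 12 OX40 agonist and 8 control members had exactly 2 UMIs of Fscn1, and 14 and 3 barcodes with 1 UMI lay just outside. A further 191 and 141 Ccr7-positive barcodes had none. Those had little Tbc1d4, a Rab GTPase-activating protein, with 191 and 136 CPM, against 1400 and 1422 CPM in OX40 agonist and control members. Their Il12b was nearer to members, with 289 and 201 CPM against 500 and 371 CPM. Ccl22 was at 279 and 201 CPM in them, against 1431 and 1678 CPM in members. The barcodes with 1 UMI of Fscn1 had 1274 and 278 CPM of Tbc1d4, so the edge is not sharp in the OX40 agonist library. Of barcodes that met the Ccr7 and Fscn1 limits, 62 and 41 were left out for 3 or more T cell gene UMIs, and 27 and 43 members had 1 or 2.

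The shared program was described by genes whose level in members differed at least 4-fold (log2 ratio of 2, with 10 CPM added) from both cDC1 and cDC2 barcodes in both libraries. Of 2220 genes with at least 50 CPM and a UMI in at least 30% of members, 112 were higher (5.05%). Of 1915 genes with at least 50 CPM in both comparison classes, 38 were lower (1.98%). Ccr7 and Fscn1 head the first group because members were chosen on them, and the comparison classes for no Ccr7 and at most 1 UMI of Fscn1. The lists below count genes with at least 10 CPM in members or either class. Over all 8168 such genes, 1.37% were higher and 0.465% lower, and the median log2 ratio lay between -0.07 and -0.03 in the 4 comparisons. With 50 CPM added in place of 10, the counts were 40 and 9.

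**Figure D1:**
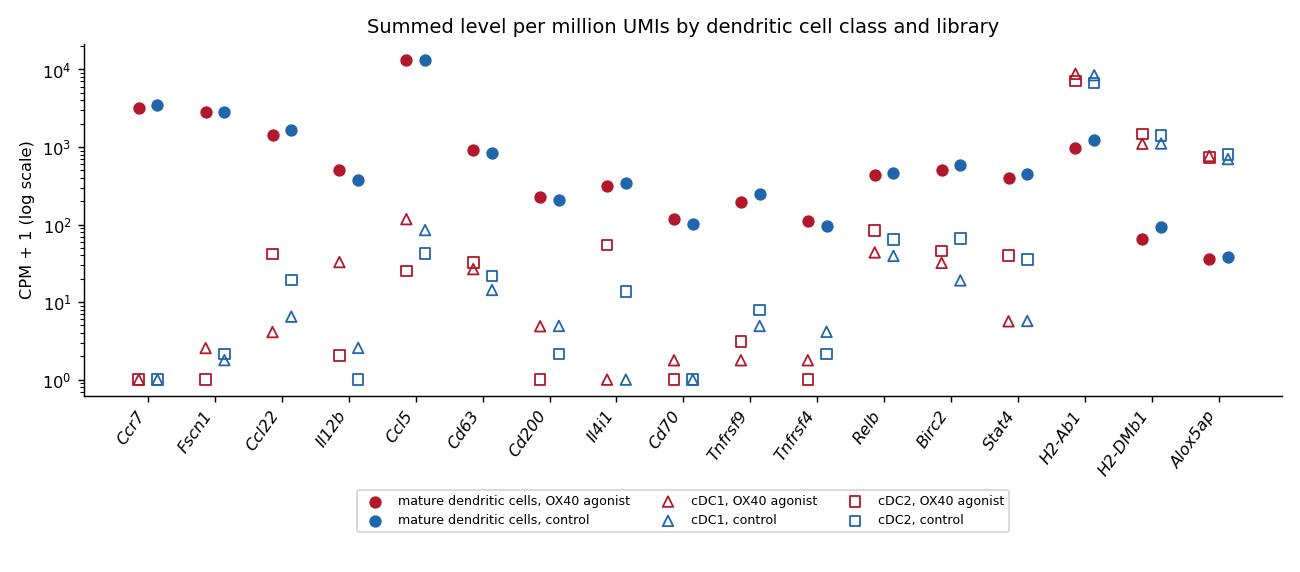
Summed CPM plus 1 (log scale) of named genes in mature dendritic cells (filled circles), cDC1 (triangles) and cDC2 (squares), OX40 agonist in red to the left of control in blue; no replicates, so no error bars. Members lie above both classes from Ccr7 to Stat4 and below them for H2-Ab1, H2-DMb1 and Alox5ap, and the libraries lie close together.

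Few chemokines were in the program. Ccl5, a chemokine for T cells and NK cells, was at 13265 CPM in OX40 agonist members and 13118 CPM in control members, against 116 and 83.9 CPM in cDC1 and 24.0 and 41.3 CPM in cDC2. T cell barcodes also held it, with 3563 CPM in the OX40 agonist library. Ccl22, the CCR4 ligand that attracts regulatory T cells, was at 1431 CPM in OX40 agonist members and 1678 CPM in control members, and at no more than 40.7 CPM in either class. These were the only 2 of the 15 chemokines measured that passed the limit in the higher direction, and 0 passed it in the lower. Ccl17, the second CCR4 ligand, was at 276 and 363 CPM in OX40 agonist and control members, but cDC2 barcodes reached 162 CPM in the OX40 agonist library. Cxcl16, the ligand of CXCR6, was at 735 and 791 CPM in members, against 258 and 195 CPM in cDC1 and 110 and 147 CPM in cDC2. The list median was within 1 log2 unit of 0 in all 4 comparisons.

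Of 10 chemokine and lipid receptors of migration, Ccr7 was the 1 higher gene and Ccr2, the monocyte receptor for CCL2, the 1 lower. Ptger4, a prostaglandin E2 receptor, was at 175 and 171 CPM in OX40 agonist and control members and at most 82.5 CPM in either class, short of the limit.

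Among 11 cytokines measured, Il12b alone passed the limit. It encodes the p40 chain of IL-12 and IL-23 and was at 500 CPM in OX40 agonist members and 371 CPM in control members, against 31.8 and 1.57 CPM in cDC1. Il15, which sustains CD8 T cells and NK cells, had 73.0 and 80.0 CPM in members and at most 11.5 CPM in either class. It stayed just short of 4-fold in 1 of the classes. Its presenting receptor chain Il15ra did pass, with 201 and 243 CPM in members against at most 7.76 CPM in cDC1 and 6.88 CPM in cDC2. Il2ra, the high-affinity chain of the IL-2 receptor, was at 62.1 and 61.6 CPM in members and at most 2.29 CPM in either class. These 2 were the only ones of 20 cytokine receptors to pass. Il1b ran the other way, with 712 and 878 CPM in members against 2566 and 2422 CPM in cDC2, without passing the limit.

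The costimulator list, which holds ligands and receptors of the second signal to T cells, lay on the higher side. The median log2 ratio of the 14 measured was 2.01 and 2.03 over cDC1 in the OX40 agonist and control libraries, and 1.41 and 1.30 over cDC2. In the higher direction 3 passed, and 0 in the lower. Cd70, the ligand of CD27, was at 117 CPM in OX40 agonist members and 101 CPM in control members and at most 0.776 CPM in either class. Tnfrsf9 (4-1BB), which like OX40 is a receptor, was at 194 and 244 CPM against at most 6.88 CPM. T cell barcodes held Tnfrsf9 at 741 CPM in the OX40 agonist library. Tnfrsf4, which encodes OX40 itself, was at 110 CPM (99.3 to 121) in OX40 agonist members and 96.2 CPM (83.9 to 110) in control members, and at most 3.14 CPM in either class. T cell barcodes carried Tnfrsf4 at 643 CPM in the OX40 agonist library. After thinning, 22.1% of OX40 agonist members and 19.5% of control members had a UMI of it, against 1.28% and 0.989% of macrophage barcodes. Its ligand Tnfsf4 had 27.7 and 24.5 CPM in members and 0 UMIs in both classes. Cd40, Cd80 and Cd86 were at 275, 173 and 251 CPM in OX40 agonist members and 316, 223 and 273 CPM in control members. None of these 3 passed the limit over both classes.

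The list of T cell restraint also had genes in the program. Of 15 measured, 3 passed in the higher direction and 0 in the lower, with list medians between 1.09 and 1.27. Socs2, though listed here, is a feedback inhibitor of cytokine signalling and not a signal to T cells. It was at 561 and 546 CPM in OX40 agonist and control members against at most 9.17 CPM in either class. Cd200, ligand of an inhibitory myeloid receptor, was at 228 and 208 CPM against at most 3.92 CPM. Il4i1, a secreted amino acid oxidase, was at 314 and 341 CPM in members, at 0 in cDC1, and at 53.2 and 12.6 CPM in cDC2. Cd274 (PD-L1) was at 297 CPM (279 to 315) in OX40 agonist members and 381 CPM (356 to 407) in control members, against 48.9 and 72.1 CPM in cDC1 and 79.3 and 141 CPM in cDC2, and did not pass.

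Signalling genes of the NF-kB pathway had list medians of 1.55 and 1.54 over cDC1 and 0.76 and 0.95 over cDC2. Relb, the transcription factor of the alternative pathway, and Birc2, a ubiquitin ligase that acts on its kinase, were the 2 of 23 that passed, and 0 were lower. Relb was at 439 and 466 CPM in OX40 agonist and control members and at most 82.5 CPM in either class. Birc2 was at 497 and 583 CPM and at most 65.4 CPM. Stat4, the transcription factor downstream of the IL-12 receptor, was at 401 and 454 CPM in members, against 4.65 and 4.70 CPM in cDC1 and 38.6 and 34.4 CPM in cDC2. It was the only one to pass on a list of 30 transcription factors, which does not hold Relb or every such factor.

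The cytoskeleton and adhesion list had 7 of 23 genes in the higher direction and 0 in the lower, Fscn1 included. Cacnb3, a calcium channel subunit, was at 605 and 619 CPM in OX40 agonist and control members and at most 3.88 CPM in either class. Anxa3, an annexin, was at 605 and 588 CPM against at most 16.7 CPM. Marcksl1, an actin-binding membrane protein, was at 1046 and 1013 CPM against at most 159 CPM. Tbc1d4, Cd63 and Eno3 were the other three. Cd63, a tetraspanin of late endosomes, was at 910 and 841 CPM in members and at most 31.3 CPM in the classes, but macrophage barcodes held 930 CPM in the OX40 agonist library. The other genes named among the 15 largest shifts were Nudt17, Zmynd15, Slc27a3, Pdlim4 and Tmem123, with smallest log2 ratios from 3.81 to 4.70.

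Antigen handling divided by pathway. Of 13 genes of MHC class II presentation, 0 were higher and 4 were lower, and the list medians were -2.15 and -1.73 over cDC1 and -1.88 and -1.30 over cDC2 in the OX40 agonist and control libraries. H2-DMb1, a chain of the peptide editor of class II molecules, was at 63.5 and 93.1 CPM in members, against 1102 and 1108 CPM in cDC1 and 1470 and 1400 CPM in cDC2. Its partner H2-DMa was at 121 and 139 CPM in members and at least 1104 CPM in the classes. H2-Ab1, a class II chain, was at 978 and 1247 CPM in members and at least 6727 CPM in the classes. The fourth was Ciita, the transcriptional activator of class II genes. Cd74, the invariant chain, was at 7431 and 8020 CPM in members against at least 26051 CPM in the classes, short of 4-fold. These are RNA levels, and surface protein was not measured.

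Class I genes did not share that shift. Their list medians lay between 0.59 and 0.77, with 1 of 21 higher and 0 lower. B2m, the light chain of class I molecules, was at 4725 and 4710 CPM in OX40 agonist and control members, against 1657 and 1793 CPM in cDC1 and 1854 and 2112 CPM in cDC2. The 1 that passed, H2-Q6, is a near copy of other class I genes, so its reads may be shared among them. Ly75 (DEC-205), an uptake receptor, was at 212 and 224 CPM in members and at most 39.2 CPM in the classes, the only one of 20 uptake genes in the higher direction. The lectin Mgl2 was the 1 in the lower.

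Outside the antigen genes, Alox5ap, which supplies the substrate for leukotriene synthesis, headed the lower group with 35.2 and 37.2 CPM in OX40 agonist and control members against at least 698 CPM in either class. Plbd1, Ckb, Cyth4, Naaa, Tgfbi, Ly6e and Sla completed the 10 named. Cell cycle genes had medians of -1.28 and -1.58 over cDC1, and 0.05 and 0.09 over cDC2. Top2a, a topoisomerase of dividing cells, was at 17.9 and 32.4 CPM in members and at 86.1 and 233 CPM in cDC1.

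The upstream sequences of 3 program genes are shown because the program held the NF-kB genes Relb and Birc2, and Il12b, Tnfrsf9 and Il2ra are known targets of that pathway. They are the 250 bases before a RefSeq start on GRCm38.p6, read 5′ to 3′ on the gene's strand, and capitals mark matches to the kB consensus on either strand. All 3 genes lie on the plus strand, Il12b at chr11:44399813-44400062, Tnfrsf9 at chr4:150927749-150927998 (the second of 2 starts listed; the first held 0 matches) and Il2ra at chr2:11642542-11642791.
Il12b: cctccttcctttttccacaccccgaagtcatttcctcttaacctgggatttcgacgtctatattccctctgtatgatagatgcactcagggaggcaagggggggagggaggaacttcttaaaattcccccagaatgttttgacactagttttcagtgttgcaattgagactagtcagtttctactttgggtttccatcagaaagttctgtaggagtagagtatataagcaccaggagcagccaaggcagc
Tnfrsf9: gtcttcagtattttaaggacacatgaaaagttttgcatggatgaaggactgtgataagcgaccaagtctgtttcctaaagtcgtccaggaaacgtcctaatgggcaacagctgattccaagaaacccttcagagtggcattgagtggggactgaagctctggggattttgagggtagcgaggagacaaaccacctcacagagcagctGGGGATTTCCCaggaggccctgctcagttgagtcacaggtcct
Il2ra: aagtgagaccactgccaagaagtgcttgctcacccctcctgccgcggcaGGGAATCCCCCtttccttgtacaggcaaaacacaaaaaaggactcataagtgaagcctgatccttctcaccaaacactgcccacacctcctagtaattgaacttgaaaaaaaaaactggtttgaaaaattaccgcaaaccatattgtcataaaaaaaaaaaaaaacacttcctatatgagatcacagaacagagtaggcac
Tnfrsf9 and Il2ra each held a pair of overlapping matches, 32 and 190 bases before the start at their nearer ends, and Il12b held 0 with these letters in this window. Of the 109 program genes left after name exclusions, 85 had a promoter sequence, and 9 of those (10.6%) held a kB consensus match, against 4.46% of 27025 genes. Another spelling (GGG, any 2 bases, TT, any base, CC), which overlaps the consensus, was found in 4 of 85 (4.71%), against 4.71% of all genes. Of 26 lower genes with a sequence, 1 held the consensus. Neither spelling was part of the written design, and the other spelling was the first considered. The consensus was chosen for the capitals after 5 motifs had been scanned on both strands and their counts seen. Its share is therefore no independent support. The motifs scanned but not described above were in 2.35%, 1.18% and 4.71% of the 85, against 0.944%, 1.65% and 3.46% of all genes. Here a match is a description of letters, not of binding.

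Members were alike in some genes and divided in others. Ccr7 had a median of 23 UMIs in OX40 agonist members (lowest 1, highest 107) and 32 in control members (lowest 2, highest 116). Fscn1 had medians of 19 and 21. Ccl22 was absent from 10.8% of OX40 agonist members and 8.70% of control members. Il12b and Ccl17 were divided far more. Il12b was absent from 59.9% of OX40 agonist members and 59.6% of control members, and the 43 and 23 members with most UMIs of it held 78.8% and 75.8% of the total. Ccl17 was absent from 56.8% and 57.0%, and as many members held 71.0% and 80.2%.

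**Figure D2:**
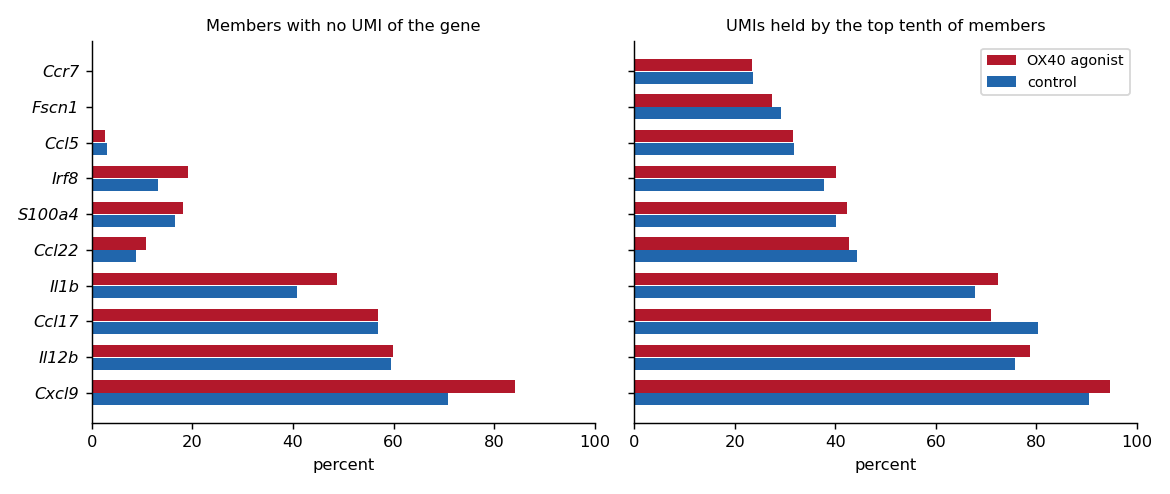
Percent of mature dendritic cells with no UMI of each gene (left panel) and percent of the gene's UMIs held by the 43 OX40 agonist and 23 control members with most of it (right panel), OX40 agonist in red above control in blue. Ccr7 and Fscn1 are never at 0, by the rule, while Il12b is at 0 in 59.9% of OX40 agonist and 59.6% of control members and its UMIs sit in few barcodes.

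At 3000 UMIs, 82 of 117 OX40 agonist members with Il12b also had Ccl22, and 46 of 64 control members. By the presence of Ccl22, Il12b had a UMI in 24.8% of OX40 agonist members with Ccl22 and 43.2% of those without it. In control members the shares were 25.6% and 43.9%. Ccl17 went with Ccl22, with 33.6% against 8.64% in OX40 agonist members and 33.9% against 4.88% in control members. Over 411 OX40 agonist and 221 control members and 2830 genes, the 5 genes whose rank order across barcodes was most like that of Il12b were Txndc17, Cst3, Ncoa7, Irf8 and Slc27a3. Their Spearman coefficients were 0.20 to 0.35 in OX40 agonist members and 0.19 to 0.34 in control members. The least like were Fabp5, Ccl22, Anxa2, S100a6 and Sh3bgrl3, from -0.29 to -0.18 in OX40 agonist members and -0.21 to -0.18 in control members. Points within a library share its depth and free RNA, the counts are sparse and the coefficients weak, so they are given as a description.

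The cDC1 or cDC2 origin of members could not be read from the genes that define the 2 types. A set of 6 cDC1 anchors (Xcr1, Clec9a, Cadm1, Naaa, Tlr3 and Itgae) and 6 cDC2 anchors (Cd209a, Sirpa, Clec4a2, Clec10a, Mgl2 and Itgam) were summed per barcode at 3000 UMIs. A barcode took a side with at least 2 anchor UMIs and at least 2 times the other side's. Only 4 of 411 OX40 agonist members (0.973%, 0.266 to 2.47) and 5 of 221 control members (2.26%, 0.739 to 5.20) took the cDC1 side. The cDC2 side held 11 (2.68%) and 6 (2.71%). No anchor UMI at all was found in 84.4% of OX40 agonist members and 81.0% of control members. The same rule placed 90.8% and 83.9% of cDC1 barcodes on the cDC1 side, and 89.6% and 86.7% of cDC2 barcodes on the cDC2 side, although anchors overlap the genes that chose those classes. No gene comparison between the sides was made on so few barcodes. With genes held out of the anchors in their place, the cDC1 side held 11.7% of OX40 agonist members and 9.50% of control members. The cDC2 side was not counted with those genes, so these shares do not show which side held more members.

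Anchor by anchor, members held a small part of the level of the class. Clec9a, a receptor for dead cells, was at 11.2 CPM in OX40 agonist members and 11.4 CPM in control members, against 217 and 210 CPM in cDC1. Xcr1, the chemokine receptor that marks cDC1, was at 1.96 and 0.437 CPM against 367 and 396 CPM. Cd209a, a lectin of cDC2, was at 7.55 and 6.56 CPM in members against 1573 and 1251 CPM in cDC2. The medians over anchors were 1.33% and 1.50% of the cDC1 level and 5.36% and 5.10% of the cDC2 level. Sirpa, an inhibitory receptor, was the anchor kept most, at 25.3% and 37.2%. The cDC1 and cDC2 barcodes were chosen on Xcr1, Clec9a and Cd209a, so the levels of these 3 there are fixed by the choice.

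Lineage genes held out of the anchors were kept unevenly. The 15 cDC1 genes had medians of 7.07% and 5.78% of the cDC1 level in OX40 agonist and control members, with 8 and 9 under 10% and 4 over 50% in each. The 20 cDC2 genes had medians of 25.8% and 29.7% of the cDC2 level, with 4 and 6 under 10% and 7 and 6 over 50%. The counts over 50% include genes that were low in their own class. In the OX40 agonist and control libraries, Ccr6 was at 1.04 and 1.15 CPM in cDC2 and Ltb at 10.4 and 11.5 CPM. Cd8a was at 11.6 and 13.3 CPM in cDC1. Irf8, a transcription factor of cDC1, was at 849 CPM (819 to 880) in OX40 agonist members and 1149 CPM (1106 to 1194) in control members, 66.1% and 68.1% of the cDC1 level, against 127 and 220 CPM in cDC2. Batf3, its partner, was at 296 and 279 CPM in members, 182% and 155% of the cDC1 level. Laptm4b, a lysosomal membrane protein, stood at 254% and 218%. On the cDC2 side, Tmem176a and Tmem176b, a pair of related membrane proteins, stood at 177% and 238%, and at 156% and 148%, of the cDC2 level. S100a4, a calcium-binding protein, was at 984 and 870 CPM in members, 37.9% and 41.9% of the cDC2 level, against 87.7 and 207 CPM in cDC1. T cell barcodes also held S100a4, with 1361 CPM in the OX40 agonist library. Wdfy4, needed for cross-presentation in mice, was kept at 1.17% and 1.47%. Irf4, a cDC2 factor, had 8.95 and 17.5 CPM in members.

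**Figure D3:**
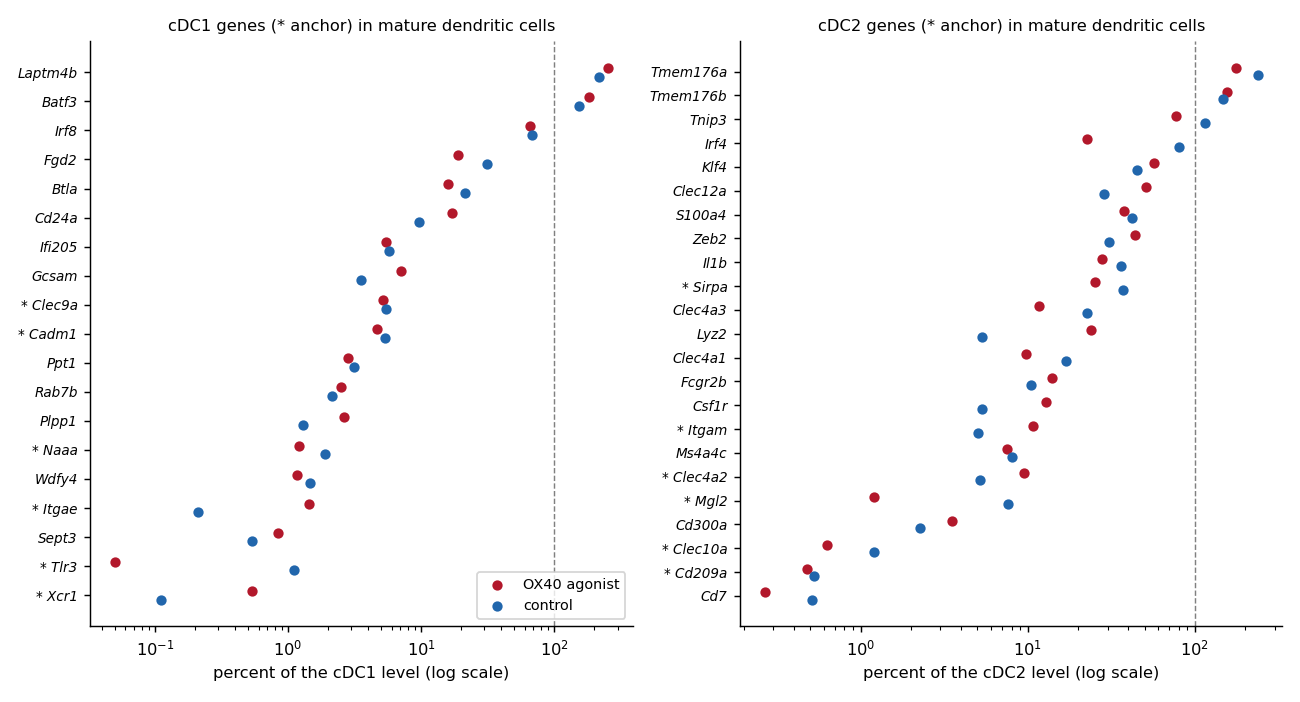
Level in mature dendritic cells as a percent of the cDC1 level (left panel) or the cDC2 level (right panel), log scale, for lineage genes with at least 20 CPM in their class; OX40 agonist in red, control in blue, anchors starred, and a value of 0 (Tlr3) drawn at the left edge. Anchors lie far left of the dashed line at 100%, while Irf8, Batf3, Laptm4b, Tmem176a, Tmem176b and Tnip3 lie near or beyond it.

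Among all genes at least 4-fold apart between cDC1 and cDC2 barcodes in both libraries, a measure added after seeing the data, 47 belonged to cDC1 and 52 to cDC2. Members held under 10% of the class level for 24 and 26 of the cDC1 genes in the OX40 agonist and control libraries, and for 21 and 23 of the cDC2 genes. A UMI in at least 40% of members was found for 10 cDC1 genes and 9 cDC2 genes. The first were Tbc1d8, Cacna1s, Cst3, Txn1, Spint2, Cd81, Ncoa7, Irf8, Serpinb6b and Id2. The second were S100a4, S100a6, S100a10, Tmem176b, Tmem176a, Tnip3, Ifitm3, Gadd45b and Malt1. Among the first, Cst3, Txn1 and Irf8 lay below the cDC1 level in members of both libraries and the rest above it. Serpinb6b, also a gene of the program, was at 1529 CPM in OX40 agonist members against 150 CPM in cDC1. A score per member, the mean scaled level of the first less that of the second at 3000 UMIs, was also chosen after its parts had been seen. Across members the 2 parts had a Spearman coefficient of -0.39 in the OX40 agonist library and -0.17 in the control library. The score is a range and not a type, since 21.9% and 19.9% of members lay within 0.1 of a limit used below.

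The 137 OX40 agonist and 74 control members with the highest scores (cDC1-leaning) were set beside as many with the lowest (cDC2-leaning), as a description over 20 draws of the thinning. These names refer to the score alone and not to an origin. Il12b had a median of 758 CPM in cDC1-leaning and 147 CPM in cDC2-leaning OX40 agonist members, a ratio of 5.13 (range over draws 4.29 to 7.07). In control members it had 583 and 182 CPM, a ratio of 3.29 (1.94 to 5.88). The score held Cst3, Ncoa7 and Irf8, named above among the genes most like Il12b, and S100a6 from the least like. The Il12b ratio is therefore not independent of that pattern. With Cst3, Irf8, S100a4 and S100a6 left out of the score, which still held Ncoa7, the ratios were 3.84 (2.88 to 5.46) and 1.73 (1.01 to 3.06). A single draw had first given ratios of 8.63 and 2.96, and the median over draws was put in its place after those had been seen. With no UMI of T cell, C1q and pigment genes allowed, the ratio was 5.98 in the 130 OX40 agonist members and 0.900 in the 41 control members. Bcl2l14, a Bcl-2 family protein, had ratios of 4.69 and 2.80 in OX40 agonist and control members. Txndc17, a thioredoxin-like protein, had 3.72 and 2.64. Scin, an actin-severing protein, had 5.63 and 2.26. Dnase1l3, Cystm1, Lima1 and Slc27a3 had ratios from 2.37 to 4.38. These genes were chosen on that single draw, after their values were seen.

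Il1b, which encodes an inflammatory cytokine, lay on the cDC2-leaning side. OX40 agonist members had 327 CPM when cDC1-leaning and 1038 CPM when cDC2-leaning, and control members 498 and 1124 CPM. The ratios were 0.319 and 0.428. Lyz2, lysozyme of myeloid cells, had ratios of 0.0593 and 0.172, and Cebpb, a myeloid transcription factor, 0.172 and 0.323. Cxcl9, a CXCR3 ligand, had 0.242 and 0.118. Detection differed less. In the single draw, Lyz2 had a UMI in 9.49% of cDC1-leaning and 17.5% of cDC2-leaning OX40 agonist members, and Cxcl9 in 6.57% and 11.7%. In control members the shares were 9.46% and 17.6% for Lyz2, and 10.8% and 25.7% for Cxcl9. One barcode held 33.1% of the Lyz2 UMIs and 1 held 22.9% of the Cxcl9 UMIs of all OX40 agonist members. Ccl22 had ratios of 1.32 and 1.27. Ccr7 had 0.851 and 1.02 and Fscn1 1.29 and 1.58, but both were used to choose the members. Batf3 did not follow the division, with 1.15 and 1.21. Ms4a4c and Ms4a6c, genes of monocytes and cDC2, were near 0 in cDC1-leaning members, with medians of 2.43 to 12.2 CPM. With the highest doublet scores removed, the Il12b ratios were 5.17 and 3.58. The part of free RNA in this division was not tested.

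**Figure D4:**
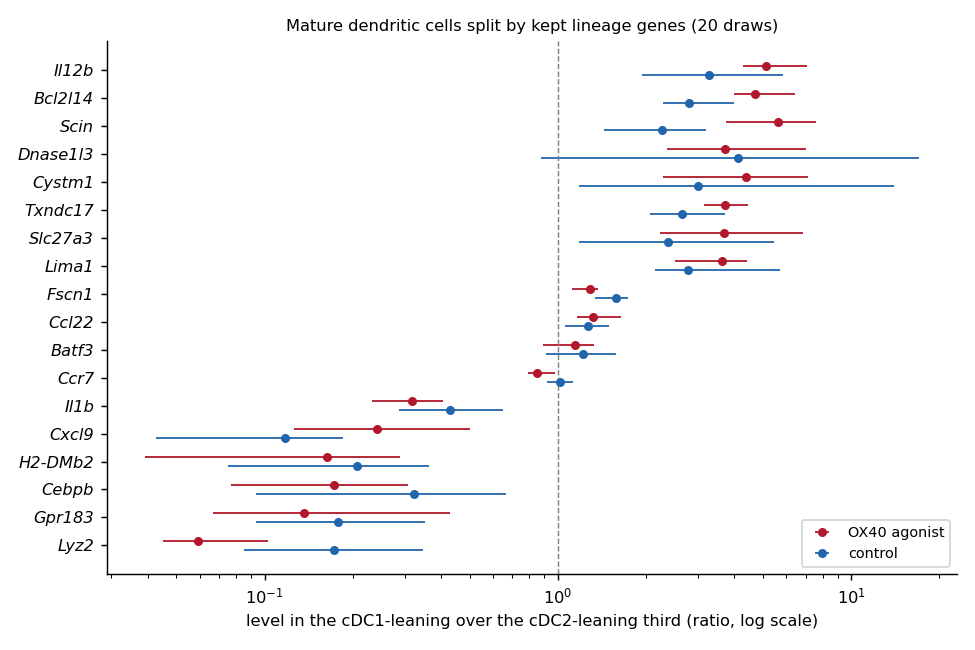
Ratio of the level in cDC1-leaning over that in cDC2-leaning mature dendritic cells (log scale); points are medians and bars the range over 20 draws of the thinning, OX40 agonist in red above control in blue. Il12b lies right of the dashed line of 1 in both libraries, Ccr7, Batf3 and Ccl22 near it, and Il1b, Cxcl9 and Lyz2 left of it.

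Few genes passed a fold limit between the libraries. For 2532 genes the higher library had 50 CPM or more, 30 or more UMIs and detection in 5% of members. Of these, 4 were at least 2-fold higher in OX40 agonist members with separate Poisson intervals (0.158%), and 4 were lower (0.158%). Over 6671 genes measured, 2800 were higher and 3871 lower, with a median log2 ratio of -0.04. Tubb2b, a tubulin chain, was the higher gene that rested least on 1 barcode, with 99.6 CPM (89.5 to 110) in OX40 agonist members and 32.8 CPM (25.8 to 41.1) in control members, a ratio of 3.04 (2.36 to 3.95). One barcode held 6.18% of its OX40 agonist UMIs. The other three were Ccl2, Lyz2 and Cxcl1, of which 1 barcode held 67.5%, 33.1% and 32.6% of the OX40 agonist UMIs. Ccl2 had a UMI in 13.7% of OX40 agonist members and 13.5% of control members. Lyz2 had one in 23.3% of OX40 agonist and 37.4% of control members, the opposite order to its CPM.

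The 4 lower genes also rested on few barcodes. Cxcl9, a chemokine induced by interferon-gamma, was at 124 CPM (112 to 136) in OX40 agonist members and 272 CPM (251 to 295) in control members, a ratio of 0.454 (0.401 to 0.514). It had a UMI in 8.76% of thinned OX40 agonist members and 18.6% of thinned control members, and 1 barcode held 26.6% of its control UMIs. Ccl4, a chemokine, had 46.7 and 160 CPM in OX40 agonist and control members, with 38.1% of control UMIs in 1 barcode. Hspa1b, a heat shock protein, had 30.8 and 82.6 CPM, with 40.2%. Gzmc, a granzyme of cytotoxic lymphocytes, had 96.0% of its control UMIs in 1 barcode. Leaving out the barcode with the most UMIs of each gene in each library left 2 genes higher and 1 lower. Among the 130 OX40 agonist and 41 control members with no UMI of T cell, C1q and pigment genes, 12 were higher and 13 lower.

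The lists of antigen presentation and interferon response differed from each other. For comparison, 3871 of all 6671 genes measured were lower in OX40 agonist members, with a median log2 ratio of -0.04. Of 17 interferon-gamma response genes, 15 were lower and 2 higher in OX40 agonist members, with a median log2 ratio of -0.34. Cd274, on that list, was at a ratio of 0.779 (0.712 to 0.853). Irf8, which is not on that list, was at 0.739 (0.701 to 0.778). The type I interferon list was even, since 7 of its 15 measured genes lay higher and 8 lower (median -0.0079). Of 21 class I genes, 14 were lower, with a median of -0.08, near that of all genes. Of 12 class II genes, 11 were lower, with a median of -0.31. H2-Ab1 had a ratio of 0.784 (0.746 to 0.824) and H2-Eb1 of 0.780 (0.752 to 0.808). When no UMI of T cell, C1q and pigment genes was allowed, the class II median was 0.18 and the interferon-gamma median -0.22. Cell cycle genes were lower in 13 of 14, with a median of -0.26. The 14 costimulators had a median of -0.11 and the 23 NF-kB genes of -0.15.

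Members were chosen on Fscn1 and Ccr7 in both libraries, so their ratios of 0.988 (0.958 to 1.02) and 0.894 (0.869 to 0.920) are a description only. Ccl22 had a ratio of 0.853 (0.817 to 0.889). Il12b was at 500 CPM (477 to 524) in OX40 agonist members and 371 CPM (346 to 397) in control members, a ratio of 1.35 (1.24 to 1.46), while the shares of members at 0 were 59.9% and 59.6%. Tnfrsf4 had a ratio of 1.14 (0.966 to 1.35) and Tnfsf4 of 1.13 (0.807 to 1.60), intervals that include 1. These rest on summed UMIs, which a few barcodes can carry.

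Markers of other cell types differed between the sets of members. The rule limited Cd3e, Cd3d, Cd3g, C1qa, C1qb, C1qc, Pmel, Mlana and Dct in every member. The sums of T cell, macrophage and melanoma markers, which include these genes, are therefore partly set by the choice of members. The 10 T cell markers summed to 33.8 CPM in OX40 agonist members and 66.9 CPM in control members, with 0 and 1 of them at 0. The 13 macrophage markers summed to 690 and 369 CPM, of which Lyz2 made up 467 and 163 CPM, and Mertk was at 0 and 0.437 CPM. Of the 9 monocyte markers, none was at 0, and they summed to 312 and 263 CPM. The 6 melanoma markers summed to 115 and 132 CPM. Neutrophil markers summed to 11.2 and 3.06 CPM, with 2 and 4 of 6 at 0. The part of these cell types in the differences between libraries was not tested.

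**Figure D5:**
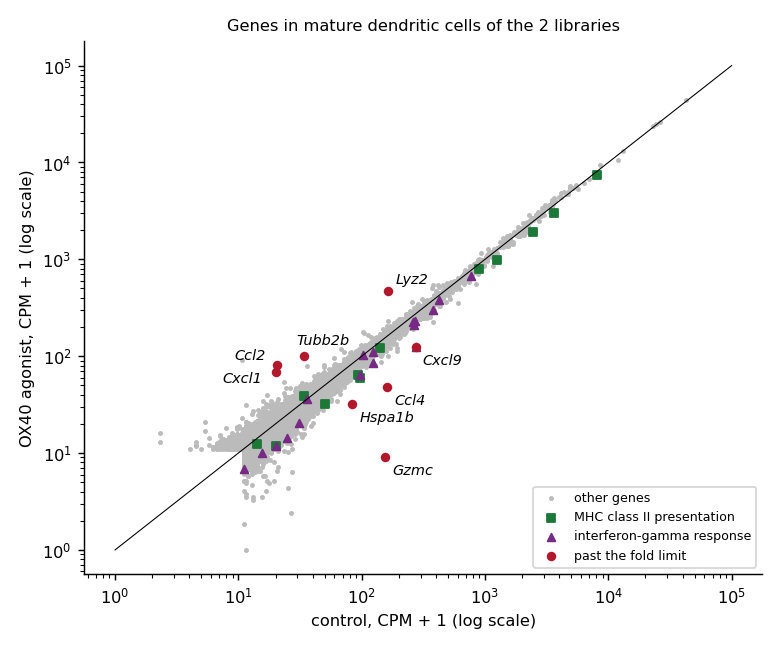
Each gene's summed CPM plus 1 in OX40 agonist members (vertical axis) against control members (horizontal axis), both log scale, for genes with at least 10 CPM in either; the line marks equality and there are no replicates. The 8 genes past the fold limit are named, and class II and interferon-gamma genes lie mostly just below the line.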

How the data were processed

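Each deposited matrix holds raw UMI counts by gene and barcode, whole and not normalized. The authors used Cell Ranger and build mm10, per the submitters' processing notes. Version 3.1.0 stands in the file headers. The labels give DAPI-negative cells as live in the protocol and DAPI-positive in the design text, and the protocol was followed.

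Counts were summed over barcodes of a class and scaled to CPM, and 10 CPM were added for log2 ratios. Shares carry Clopper-Pearson, sums Poisson and ratios exact conditional 95% intervals. Shares of barcodes with a UMI were set side by side after thinning to 3000 UMIs, which left out 13 OX40 agonist and 9 control members. Doublets were kept in the values as reported: Scrublet (scanpy 1.11.5) marked 0% of barcodes by its automatic threshold, so an alternative removed the highest scores, 0.8% per 1000 barcodes. Gene positions are GENCODE M21 on GRCm38, the build of mm10, and sequences RefSeq GRCm38.p6.

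The members, gene lists and settings were chosen with earlier results of these data known. Named genes are the 15 highest and 10 lowest of the program, all genes past the fold limit between libraries, and members of the lists. Mitochondrial, ribosomal, predicted (Gm, Rik) and receptor-segment genes were left out of naming.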

Additional observations from a re-analysis of the deposited data

How the results depend on the processing

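No paired analysis was possible because each group has 1 library. Of the shares and the counts of genes, 61 values under the alternatives stayed within their limits and 22 did not, and the alternatives of the score were chosen after seeing the data. Allowing no UMI of T cell, C1q and pigment genes raised the ratio of shares to 2.69 and gave 12 genes higher and 13 lower in OX40 agonist members, the class II median turned to 0.18 and the Il12b ratio of cDC1-leaning over cDC2-leaning control members to 0.900. That setting leaves 130 OX40 agonist and 41 control members; the cause was not tested. With 1 UMI of Fscn1 allowed, 2 genes were lower in OX40 agonist members.

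Adding 1 CPM gave 58 genes lower in members than in both classes, and adding 50 CPM gave 40 higher and 9 lower, since the added value shrinks ratios of low genes. Between libraries, adding 50 CPM left 1 gene higher and 2 lower, the mean of each barcode's CPM left 1 higher, thinning left 2 higher and 2 lower, and leaving out the barcode with the most UMIs left 2 higher and 1 lower.

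With 1 anchor UMI the cDC1-side share was 4.87% of OX40 agonist members and 4.98% of control members, the second still within its interval as reported. The share moved to 0.243% of OX40 agonist and 0.452% of control members with 3, and to 4.48% and 6.09% without thinning. It was 0 in control members at 2000 UMIs, which allows up to 1.65%, and 11.7% and 9.50% with the held-out genes. The cDC2-side share was not counted under these settings. The cDC1 barcodes of the control library had a median of 21483 UMIs against 13072 in the OX40 agonist library.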
